A study of Mus musculus with 4 samples.

Results

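The CD300, PILR and CD200 receptors are paired receptors of myeloid cells, and the genes followed here are Cd300a, Cd300e, Cd300lb, Cd300ld, Cd300lf, Pilra, Pilrb1, Pilrb2, Cd200r1 and the related Sirpa. They were taken by name, as the rows of the count table whose Ensembl ID the mouse annotation gives such a symbol. The annotation was GENCODE release M21, genome build GRCm38. All 10 were found among the 49315 genes of the table. The libraries came from mouse bone marrow-derived macrophages, cells grown from marrow for 7 days in L-cell supernatant. M2 libraries (n = 2) came from Lyz2Cre+ macrophages given IL-4 and IL-13, each at 10 ng/ml, for 24 hours. M1 libraries (n = 2) came from Lyz2Cre+ macrophages given LPS at 100 ng/ml and IFNg at 50 ng/ml for the same 24 hours. Both groups carry Cre, which is driven from the Lyz2 locus of myeloid cells, and the labels name no floxed allele and no age. Erlotinib, an EGFR inhibitor, is part of the series as a whole, and nothing in the labels of these 4 libraries tells if they received it. No library of unpolarized macrophages is among the 4, so each difference is between M2 and M1 and its direction away from a resting state is unknown.

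Paired receptors come in families whose members have similar extracellular domains and opposite signals. Inhibitory members carry tyrosine motifs in a long tail, which Src family kinases phosphorylate and which then recruit phosphatases such as SHP-1 (Ptpn6) or, for the CD200 receptor, the adaptor Dok2 and the Ras GTPase-activating protein encoded by Rasa1. Activating members have short tails and borrow the adaptors DAP12 (Tyrobp) or the Fc receptor gamma chain (Fcer1g), which pass the signal to the kinase Syk. In macrophages these receptors set the threshold for phagocytosis and cytokine release, with Sirpa, the receptor for the "don't eat me" ligand CD47, as the best known example.

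Library totals ran from 26806370 to 39506242 counts. Values below are CPM, read counts scaled to library size after TMM normalization, and the test is edgeR's quasi-likelihood test over all genes that passed its filter on low counts, with Benjamini-Hochberg adjustment and a call at an adjusted p under 0.05. Of 14656 genes tested, 77.2% were called, 39.7% as higher and 37.5% as lower in M2, and 88.5% had M2 and M1 libraries that did not overlap. A call alone therefore says little here, and sizes are given throughout. Separate animals or cultures are not stated for the 2 libraries of a group, so the error behind each p-value may be technical. An exact permutation test of 2 libraries against 2 cannot go below p = 0.333. The macrophage markers Adgre1, Csf1r, Cd68, Lyz2, Itgam, Mertk and Fcgr1 were all detected and summed to 4334 to 4444 CPM in M2 and 4953 to 5173 CPM in M1, with members going both ways. Csf1r was 6.21-fold and Cd68 10.5-fold higher in M2, while Adgre1 was 2.33-fold, Itgam 5.74-fold, Mertk 8.22-fold and Fcgr1 26.9-fold lower. Lyz2, usually abundant in macrophages and the locus that drives Cre here, reached only 6.51 and 6.88 CPM in M2 and 25.3 and 27.3 CPM in M1. Any part of the Cre allele in these low values was not tested. The M2 markers Mrc1, Retnla and Chil3 summed to 1343 to 1363 CPM in M2 and 2.68 to 3.78 CPM in M1, and the M1 markers Nos2 and Il12b to 16.7 to 18.3 CPM in M2 and 12540 to 14230 CPM in M1. In bulk libraries fewer cells of a type and less RNA per cell cannot be told apart.

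Of the 10 receptors 5 were higher and 5 were lower in M2, and the split ran through both the inhibitory and the activating members. Cd300a, Cd300lb, Cd300ld, Cd200r1 and Sirpa rose in M2 relative to M1. Cd300e, Cd300lf, Pilra, Pilrb1 and Pilrb2 fell. All 10 passed the filter, all 10 were called and none overlapped between the groups. Of all genes tested 77.2% were called and 88.5% did not overlap, so neither trait is particular to the receptors. In size, 9 of the 10 changed by at least 1 log2 unit, against 40.7% of tested genes called at that size, and 5 of the 10 changed by at least 5 log2 units, against 4.59%. The median absolute log2 fold change was 4.64 over the 10 receptors and 0.76 over all genes tested. These comparisons of size are no independent evidence, as the 10 genes were chosen with earlier results of these data known. Cd300e, Pilrb1 and Pilrb2 also passed the filter only through their M1 counts, so their place among the tested genes depended on M1 being high.

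**Figure D1:**
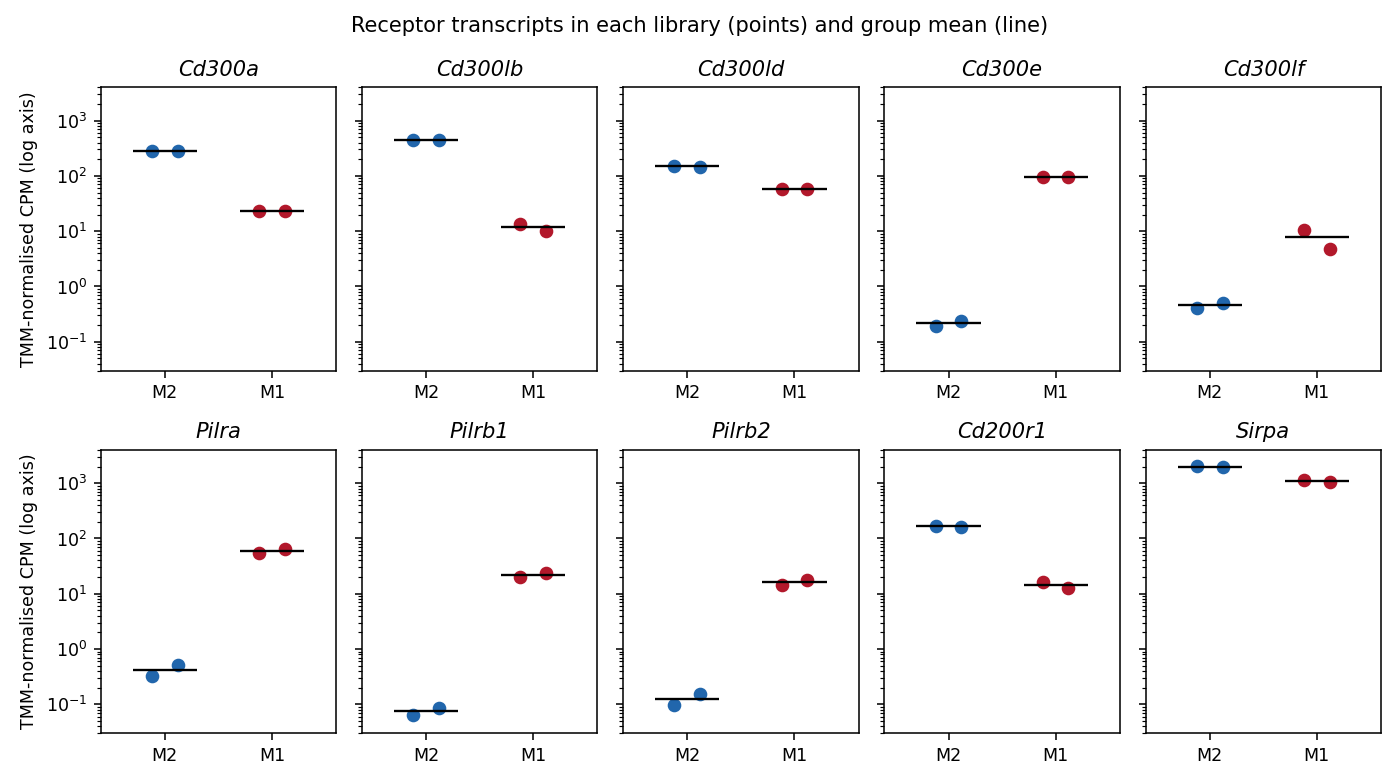
TMM-scaled CPM of each receptor gene in the 2 M2 and the 2 M1 libraries, on a log10 axis. Each point is 1 library and each line a group mean. The points of a group lie close together next to the distance between groups in all 10 genes, and Cd300lf in M1, at 10.7 and 4.84 CPM, has the widest pair.

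**Figure D2:**
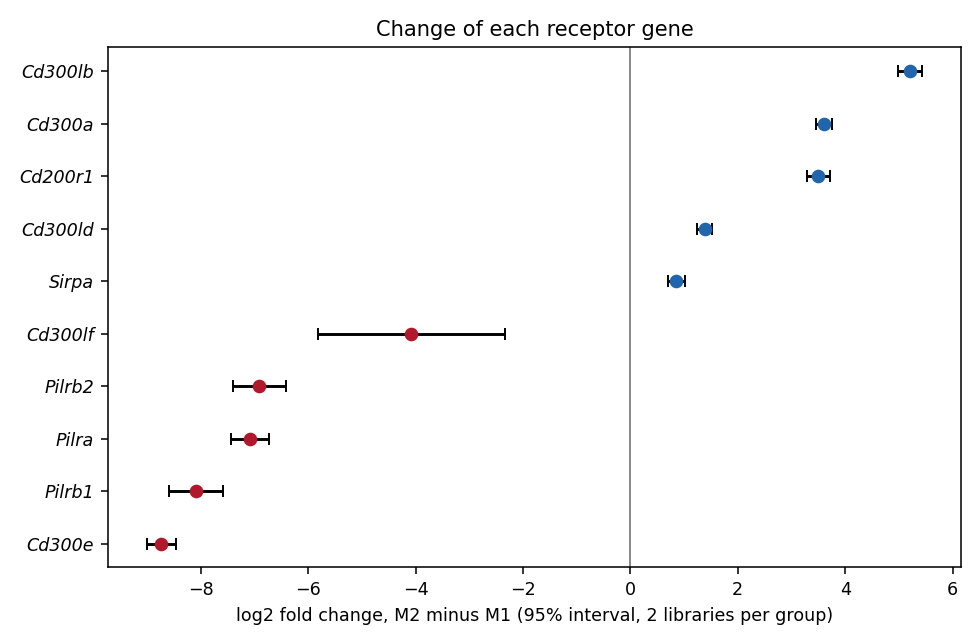
Fold change of each receptor gene, M2 minus M1, in log2 units, with its 95% interval from the edgeR fit (n = 2 libraries per group). The 5 genes right of 0 run up to Cd300lb at 5.21, the 5 genes left of 0 run down to Cd300e at -8.74, and no interval reaches 0. For Cd300e, Pilra, Pilrb1 and Pilrb2 the drawn interval is narrower than counting error alone gives, and so too narrow.

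Among the inhibitory receptors, Cd300a and Cd200r1 had the largest rises. Cd300a, an inhibitory receptor for phosphatidylserine and phosphatidylethanolamine on dying cells, had 287 and 285 CPM in M2 against 23.6 and 23.4 CPM in M1. The libraries of each group were almost equal and the groups stood far apart. Its log2 fold change was 3.61 ± 0.07 (SE), 12.2-fold, with an adjusted p of 6.32e-16.

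Cd200r1, the inhibitory receptor for CD200, had 169 and 163 CPM in M2 against 16.5 and 12.7 CPM in M1. Both M2 libraries were high, and the M1 libraries, both low, lay further apart than the M2 libraries did. The log2 fold change was 3.50 ± 0.10 (SE), 11.3-fold, with an adjusted p of 2.11e-12. Sirpa, which binds CD47 and recruits SHP-1, had the highest level per kilobase of the list in both states, with 2002 and 1960 CPM in M2 against 1139 and 1049 CPM in M1. Its groups did not overlap, but the change was the smallest of the 10. It came to 0.86 ± 0.07 (SE) in log2 units, 1.81-fold, with an adjusted p of 4.16e-08, and 25.3% of tested genes rose more.

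The other inhibitory receptors of the list, Pilra and Cd300lf, went the other way. Pilra, whose mouse protein binds sialylated O-glycosylated ligands, had 0.319 and 0.521 CPM in M2, which is 10 and 24 counts, against 55.0 and 65.6 CPM in M1. It was near the floor of detection in both M2 libraries and moderate in both M1 libraries. The log2 fold change was -7.09 ± 0.16 (SE), 136-fold higher in M1, with an adjusted p of 1.28e-13. Since the M2 value rests on few counts, the ratio of pooled counts was also taken with its exact 95% interval, which covers counting error only: M1 over M2 it was 136, between 97.3 and 197.

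Cd300lf, an inhibitory receptor that binds lipids such as ceramide, had 0.415 and 0.499 CPM in M2 against 10.7 and 4.84 CPM in M1. Both M2 libraries were low, while the M1 libraries differed by 2.21-fold, more than for any other receptor of the list. Its log2 fold change of -4.08 ± 0.62 (SE) had the widest interval, -5.82 to -2.34, and the largest adjusted p, 0.00466. Without M1 replicate 1 the log2 fold change was -3.38 and without M1 replicate 2 it was -4.52. Each of these fits holds a single M1 library, so the spread between the M1 libraries does not enter it.

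Of the activating receptors, 2 rose in M2. Cd300lb, which signals through DAP12 in the mouse, had 436 and 443 CPM in M2 against 13.5 and 10.2 CPM in M1. Both M2 libraries were high and nearly equal, and both M1 libraries were low. The log2 fold change of 5.21 ± 0.11 (SE), 36.9-fold, was the largest rise of the list, with an adjusted p of 6.47e-14. Cd300ld, which couples to the Fc receptor gamma chain, had 153 and 146 CPM in M2 against 56.9 and 58.0 CPM in M1. Both groups were tight and the change was modest, 1.38 ± 0.06 (SE) in log2 units, 2.60-fold, with an adjusted p of 1.52e-11.

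Cd300e gave the largest fall of the list. It is an activating receptor that pairs with DAP12, as known from the human protein, and it had 6 and 11 counts in M2, 0.192 and 0.239 CPM, against 94.4 and 96.2 CPM in M1. The gene was close to undetected in both M2 libraries and clearly present in both M1 libraries. The log2 fold change was -8.74 ± 0.13 (SE) with an adjusted p of 3.24e-17, and the pooled counts gave M1 over M2 at 433, with an exact 95% interval of 270 to 744. The fitted interval, -9.01 to -8.46 in log2 units, is narrower than this interval for counting error, so the SE understates the uncertainty. Among tested genes 0.43% fell more.

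Pilrb1, the activating DAP12-coupled partner of Pilra, had 2 and 4 counts in M2, 0.0639 and 0.0868 CPM, against 20.2 and 24.1 CPM in M1. Pilrb2, a close copy of Pilrb1, had 3 and 7 counts in M2, 0.0958 and 0.152 CPM, against 14.6 and 17.5 CPM in M1. All 4 M2 values were near 0 and all 4 M1 values were above 14 CPM. The log2 fold changes were -8.09 ± 0.23 (SE) for Pilrb1 and -6.91 ± 0.23 (SE) for Pilrb2, with adjusted p-values of 5.94e-14 and 3.76e-13. The pooled ratios, M1 over M2, were 284 for Pilrb1 (exact 95% interval 130 to 775) and 123 for Pilrb2 (66.7 to 258), so these intervals overlap.

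The 3 PILR genes lie side by side on the minus strand of chromosome 5 in 49.9 kb, Pilra at chr5:137821952-137836281, Pilrb1 at chr5:137852147-137858106 and Pilrb2 at chr5:137865827-137871815 (GRCm38). Their start regions are near copies of one another, and they are shown because all 3 genes moved together. Each window is from RefSeq (GRCm38.p6), minus strand, 250 bases before to 50 after the annotated start, at chr5:137836229-137836528 for Pilra, chr5:137858000-137858299 for Pilrb1 and chr5:137871709-137872008 for Pilrb2. Capitals mark matches to a short set of motifs searched on both strands.
Pilra: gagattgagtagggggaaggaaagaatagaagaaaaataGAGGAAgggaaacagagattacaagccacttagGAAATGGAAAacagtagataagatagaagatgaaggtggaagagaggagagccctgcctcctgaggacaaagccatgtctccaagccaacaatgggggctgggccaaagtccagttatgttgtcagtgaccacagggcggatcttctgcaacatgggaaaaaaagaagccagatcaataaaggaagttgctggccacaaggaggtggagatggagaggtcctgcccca
Pilrb1: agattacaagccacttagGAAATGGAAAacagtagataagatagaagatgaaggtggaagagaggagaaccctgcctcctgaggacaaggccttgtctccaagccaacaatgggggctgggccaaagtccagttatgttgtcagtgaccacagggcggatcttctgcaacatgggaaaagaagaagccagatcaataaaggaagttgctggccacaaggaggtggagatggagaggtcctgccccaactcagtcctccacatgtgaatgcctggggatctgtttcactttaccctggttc
Pilrb2: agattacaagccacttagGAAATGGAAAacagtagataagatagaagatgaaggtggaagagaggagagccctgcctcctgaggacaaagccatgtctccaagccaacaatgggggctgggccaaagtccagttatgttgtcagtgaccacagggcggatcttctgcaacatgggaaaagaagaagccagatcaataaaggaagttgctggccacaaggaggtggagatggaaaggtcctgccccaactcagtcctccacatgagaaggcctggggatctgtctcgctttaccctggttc
The capitals in all 3 are a match to GAAA, any 2 bases and again GAAA, the core of the interferon-stimulated response element, at -178 from the start of Pilra and at -232 from the starts of Pilrb1 and Pilrb2. The extra capitals in Pilra are GAGGAA, the purine core bound by the myeloid ETS factor PU.1. Pilra and Pilrb1 were identical at 98.4% and Pilra and Pilrb2 at 99.2% of 246 aligned bases, and Pilrb1 and Pilrb2 at 97.3% of 300 bases. The 3 matches are therefore copies of 1 sequence. This pattern occurred in 3.44% of 32851 windows of the same length over all genes, and a match is a description of letters, not of binding.

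Stretches shared with other genes bear on the counts of the PILR genes. Of the 100-base stretches in the exons, 12% in Pilra, 3.53% in Pilrb1 and 2.81% in Pilrb2 also occur in another gene, so some reads of the 3 cannot be assigned with certainty. Pilrb1 has 79 shared stretches in all and Pilra has 393, so most of those in Pilra are shared with Zcwpw1, the other gene that holds any, and not with Pilrb1. The library kit did not mark strand, and 468 exon bases of Pilra (15.1%) lie opposite exons of Zcwpw1, which had 1.41 and 0.977 CPM in M2 against 2.71 and 2.32 CPM in M1. Within the 3, Pilra held 55.9% and 58.0% of the summed level per kilobase in M2 and 50.0% and 49.9% in M1. The balance of Pilrb1 to Pilrb2 counts was 0.667 and 0.571 in M2 and 1.38 and 1.38 in M1, but the M2 values rest on 2 to 7 counts per gene and library. The nearest tested protein-coding genes that do not overlap the PILR genes, Mepce and Zkscan1, also fell in M2, by 1.37 and 0.62 log2 units, less than the PILR genes, and the call of Zkscan1 was lost under total-count scaling (adjusted p 0.0644).

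The CD300 genes other than Cd300lg sit in 1 cluster of 244 kb on chromosome 11, and direction changed along it. From the first gene onwards, Cd300a (chr11:114890041-114904654, plus strand), Cd300lb (chr11:114922781-114934386, minus), Cd300ld (chr11:114982274-114989922, minus), Cd300c2, Cd300ld5 and Cd300ld3 were higher in M2. At the far end, Cd300e (chr11:115051917-115062177, minus) and Cd300lf (chr11:115116214-115133992, minus) were lower. The switch falls between Cd300ld3, with a log2 fold change of 2.14, and Cd300e, at -8.74, which are 3507 bases apart on the same strand. Cd300ld4, a low-expressed locus between Cd300ld and Cd300ld3, was the exception on the near side, at -1.86, with 0.351 and 0.261 CPM in M2 against 1.24 and 0.936 CPM in M1. Cd300ld3, Cd300ld4 and Cd300ld5 share 80.9%, 86.7% and 100% of their 100-base exon stretches with another gene, so their separate values are uncertain. Cd300e and Cd300lb share none, and Cd300c and Cd300ld2 had too few counts to be tested. Of the nearest tested protein-coding genes outside the cluster, Gprc5c rose by 7.55 log2 units, more than any CD300 gene, with 2 and 4 counts in M1. Slc9a3r1, on the other side, fell by 0.41. Cd300lg (chr11:102041509-102055620) lies apart from the cluster and was left out of its shares. It had 14 and 27 counts in M2 against 2 and 3 in M1, a log2 fold change of 2.45 (adjusted p 0.00102).

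The start regions of the extremes of the cluster, Cd300e and Cd300lb, are shown because these genes moved most in opposite directions. Both windows are on the minus strand, at chr11:115061990-115062289 for Cd300e and chr11:114934322-114934621 for Cd300lb (RefSeq, GRCm38.p6), with capitals as above.
Cd300e: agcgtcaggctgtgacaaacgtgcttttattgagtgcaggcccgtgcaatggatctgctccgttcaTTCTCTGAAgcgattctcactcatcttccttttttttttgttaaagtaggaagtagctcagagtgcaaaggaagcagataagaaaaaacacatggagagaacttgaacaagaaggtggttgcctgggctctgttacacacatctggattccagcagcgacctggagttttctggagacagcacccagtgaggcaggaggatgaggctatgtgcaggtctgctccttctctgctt
Cd300lb: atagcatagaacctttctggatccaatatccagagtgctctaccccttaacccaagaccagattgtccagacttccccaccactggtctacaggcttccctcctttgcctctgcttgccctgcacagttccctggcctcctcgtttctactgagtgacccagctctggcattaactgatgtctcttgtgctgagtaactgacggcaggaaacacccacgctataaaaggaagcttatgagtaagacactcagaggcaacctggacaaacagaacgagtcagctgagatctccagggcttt
The capitals in Cd300e are a match to TTCNNNGAA, 1 of the 5 motifs searched, at -184 from the start. Cd300lb held no match to any of them. Windows were found for 8 of the 10 receptors, and none was matched for Cd200r1 or Sirpa. TTCNNNGAA was in 1 of the 8, Cd300e, against 8.30% of all windows. Outside the 8 it was in Sirpb1a, Sirpb1b and Sirpb1c, which were not called. The interferon-stimulated response element core was in 3 of the 8, the PILR genes, against 3.44%, and those 3 matches are copies of 1 sequence. Outside the 8 the same core was in Cd300c2, which was higher in M2, and in Cd300c, which was not tested. Sirpb1a and Sirpb1b, which were not called, held it too. GAGGAA was in 4 of the 8, Cd300a, Cd300ld, Cd300lf and Pilra, against 28.3%. TTC and GAA with any 4 bases between them is the wider spacing used by STAT6, and TGANTCA is the AP-1 site. Both were in none of the 8, against 6.95% and 7.81% of all windows. Outside the 8, Cd200r4, which was lower in M2, held the wider spacing. The start regions of the neighbours Cd300e and Cd300ld3 were identical at 64.4% of aligned bases, against 89.0% for Cd300ld and Cd300ld3. Gaps were not counted, and windows of different families reached 54.4% (Cd300ld and Pilra) to 69.8% (Cd300a and Sirpb1a). The 64.4% is thus no more than windows of different families gave.

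Because the CD300 genes moved in both directions, the make-up of the family differed between the states. Shares were taken within each library from CPM per kilobase of exon, so the scaling between libraries drops out. Cd300c2, an activating CD300 gene of the cluster that is not among the 10, held most in M2, 41.1% and 41.5%, against 26.5% and 26.9% in M1. Cd300lb held 28% and 28.7% in M2 against 3.75% and 2.90% in M1. Cd300e held 0.0172% and 0.0216% in M2 against 36.8% and 38.1% in M1, where it was the leading gene. The summed level of the cluster was 533 and 530 CPM per kilobase in M2 against 123 and 121 in M1. Cd300a over Cd300lb, a single inhibitory over a single activating gene, was 0.406 and 0.396 per kilobase in M2 against 1.08 and 1.41 in M1. That ratio does not stand for the family. Inhibitory Cd300a held 11.4% and 11.3% of the cluster sum in M2 against 4.05% and 4.09% in M1. Inhibitory Cd300lf held 0.0151% and 0.0183% in M2 against 1.69% and 0.778% in M1.

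The CD200 receptor locus on chromosome 16 showed a like exchange of its leading gene. Cd200r1 (chr16:44765736-44794978, plus strand) and Cd200r4, an activating relative that couples to DAP12, lie 16754 bases apart. Cd200r4 had 24.8 and 24.9 CPM in M2 against 43.4 and 34.1 CPM in M1. It was lower in both M2 libraries, with a log2 fold change of -0.65 ± 0.10 (SE) and an adjusted p of 8.61e-05, a call lost under total-count scaling (-0.20, adjusted p 0.0723). The ratio of Cd200r1 to Cd200r4 counts, which no scaling touches, was 6.81 and 6.57 in M2 against 0.380 and 0.372 in M1. Of the nearest tested protein-coding genes outside this locus, Ccdc80 rose by 5.5 log2 units, more than Cd200r1 did, and Gtpbp8 by 0.59. Cd200r2 had no count in M2 and 5 and 6 counts in M1, and Cd200r3, known from basophils, had 4 and 4 counts in M2 and 1 and 1 in M1. Sirpa (chr2:129592835-129632228, plus strand) took 99.7% in both M2 libraries and 99.4% and 99.6% in the M1 libraries of the summed level of Sirpa and the Sirpb1 genes. Of the 13 further CD300, CD200R and SIRP loci of the annotation 9 were tested, of which 4 were higher, 2 were lower and 3, all Sirpb1 genes, were not called. The 6 called of 9 stand against 77.2% of all tested genes, so the number of calls is not above the background. Sirpb1c, the most abundant of those 3, had 1.92 and 2.13 CPM in M2 against 2.03 and 1.59 CPM in M1 and was not called (adjusted p 0.505). Under total-count scaling Sirpb1c (0.61, adjusted p 0.0163) and Sirpb1b (0.83, adjusted p 0.0152) were called higher, so that 6 of the 9 loci were higher and 1 was lower.

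**Figure D3:**
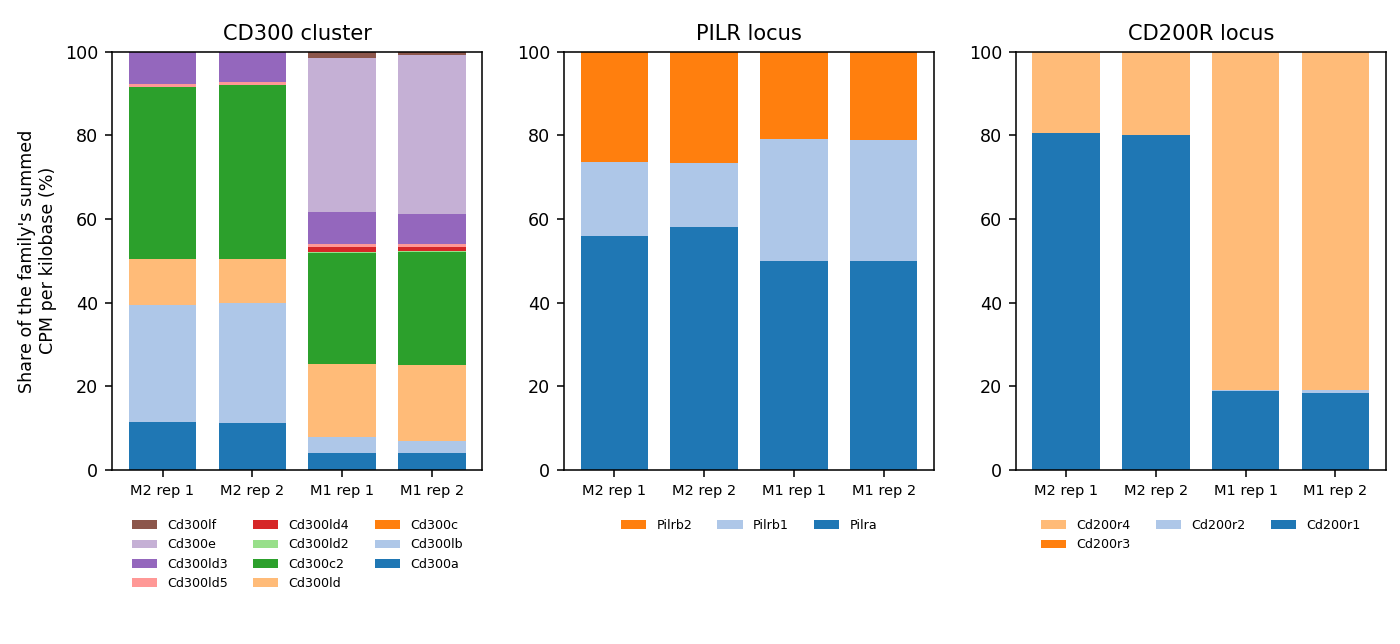
Share of each gene in the summed CPM per kilobase of its locus, in percent, in the 2 M2 and the 2 M1 libraries, for the CD300 cluster, the PILR locus and the CD200R locus. Each bar is 1 library and sums to 100%. Cd300e takes 36.8% and 38.1% of the CD300 sum in M1 and under 0.1% in M2, and Cd200r1 takes 80.6% and 80.0% of the CD200R sum in M2 against 18.8% and 18.4% in M1.

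Ordered by level per kilobase of exon, Sirpa came first in both states, at 403 ± 5.98 CPM per kilobase in M2 and 223 ± 12.9 in M1 (SD, n = 2 each). In M2 Cd300lb (151), Cd300a (60.4), Cd300ld (56.6) and Cd200r1 (49.6) followed, and Pilra (0.136), Cd300e (0.103), Cd300lf (0.0888), Pilrb2 (0.0633) and Pilrb1 (0.0385) were all far below 1 CPM per kilobase. In M1 the order after Sirpa was Cd300e (45.6), Cd300ld (21.7), Pilra (19.5), Pilrb1 (11.3), Pilrb2 (8.20), Cd300a (4.96), Cd200r1 (4.36), Cd300lb (4.06) and Cd300lf (1.51). In M2 the neighbours Pilra, Cd300e and Cd300lf differed by less than the larger SD of each pair (SD 0.0462, 0.016 and 0.0116 CPM per kilobase, n = 2 each). The same held in M1 for Cd300ld and Pilra (SD 0.302 and 2.41) and for Cd300a, Cd200r1 and Cd300lb (SD 0.0285, 0.799 and 0.787). With the length of the longest transcript in place of all exons, Cd200r1 passed Cd300ld and Cd300lf passed Cd300e in M2, and Pilra passed Cd300ld and Cd200r1 passed Cd300a in M1.

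For the receptors with the largest rise and the largest fall, the most alike protein-coding genes were sought, by the Euclidean distance of log2 CPM centred on its mean over the 4 libraries. For Cd300lb they were Tmem144, at a distance of 0.0818 and a log2 fold change of 5.25, and Arhgap19, at 0.138 and 5.31. For Cd300e they were Gbp6, an interferon-induced guanylate-binding protein gene, at 0.166 and -8.62, and Ifi44, another interferon-induced gene, at 0.225 and -8.61. With 4 libraries in 2 groups this measure mostly reflects the size of the change.

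The ligands of these receptors changed as well, some in the opposite direction to the receptor. Cd200, the ligand of Cd200r1, had 2.08 and 2.78 CPM in M2 against 94.7 and 104 CPM in M1, both M2 libraries far below both M1 libraries. Its log2 fold change was -5.32 ± 0.11 (SE) with an adjusted p of 4.49e-15, while its receptor rose by 3.50. Cd47, the ligand of Sirpa, had 201 and 202 CPM in M2 against 493 and 473 CPM in M1 and fell by 1.26 log2 units (adjusted p 7.24e-11). The ratio of Sirpa to Cd47 counts was 9.94 and 9.68 in M2 against 2.31 and 2.22 in M1.

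Genes known as partners of PILR alpha, from human or mouse proteins, were higher in M2, where Pilra was near 0. Pianp had 11.8 and 12.2 CPM in M2 against 0.172 and 0.244 CPM in M1, 5 and 6 counts, with a log2 fold change of 5.85 (adjusted p 1.49e-12). Npdc1 rose by 2.36 and Colec12 by 3.66 log2 units. In all, 3 of the 5 ligand genes tested were higher and 2 were lower in M2. Over all tested genes 77.2% were called, 39.7% as higher and 37.5% as lower, so the calls of the ligands alone say little. Sftpd and Sftpa1, surfactant proteins, had 2 counts between them in all 4 libraries. The fibroblast markers, of which all 5 were detected, summed to 1034 and 1058 CPM in M2 against 114 and 106 CPM in M1, nearly all from Col1a1 and Col1a2. Pdgfra was higher in M2 as well, at 7.38 and 6.58 CPM against 1.27 and 0.691 CPM in M1, and Dcn and Lum were lower in M2. Their part in any of these values was not tested.

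Downstream of the receptors, signalling genes that the families share went both ways. Of the 4 Src family kinases described, which phosphorylate the receptor tails, 3 fell and 1 rose. Calls were common over all tested genes, at 77.2%, with 39.7% higher and 37.5% lower, so these calls alone say little. Lyn had 111 and 111 CPM in M2 against 917 and 846 CPM in M1, Src fell by 1.63 and Fgr by 1.48 log2 units, and Fyn rose by 1.13. Lyn's log2 fold change was -2.99 ± 0.07 (SE) with an adjusted p of 1.01e-14. The median over all genes tested was 0.04.

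The activating adaptors and effectors did not move together: 2 of 11 rose, 6 fell and 3 were not called, with a median of -0.29. With 8 of 11 called against 77.2% of all tested genes, the number of calls is near the background. The 2 adaptors that the activating receptors use went in opposite directions. Tyrobp (DAP12) had 591 and 611 CPM in M2 against 276 and 282 CPM in M1, a rise of 1.11 log2 units (adjusted p 4.43e-10). Fcer1g had 421 and 439 CPM in M2 against 1641 and 1747 CPM in M1, with a log2 fold change of -1.98 (adjusted p 1.46e-12). Lat2, a scaffold of immunoreceptor signalling, rose by 2.88, and Malt1, a scaffold and protease that acts after Syk and Card9, fell by 2.24. Btk, the most abundant of the genes not called, stood at 0.12 (adjusted p 0.0984). It was called higher under upper-quartile scaling (0.30, adjusted p 0.000213) and under total-count scaling (0.56, adjusted p 4.3e-07), and stood at 0.16 without M1 replicate 1. Under upper-quartile scaling 4 of the 11 were higher and 5 lower, and under total-count scaling 6 were higher and 5 lower.

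Of 12 inhibitory effectors, 2 rose, 8 fell and 2 were not called, with a median of -0.52, so that the number called, 10 of 12, is again near the background of 77.2%. Ptpn6 (SHP-1), the phosphatase that most of the inhibitory tails recruit, had 200 and 193 CPM in M2 against 802 and 750 CPM in M1, a log2 fold change of -1.98 (adjusted p 7.38e-13), and the adaptor Fyb fell by 2.10. The genes that rose were Rasa1, by 1.40, and Dok2, by 0.83 (adjusted p 2.12e-11 and 5.57e-09), which encode the effectors named above for the CD200 receptor. Csk, the kinase that restrains the Src family and the most abundant gene not called, stood at -0.04 (adjusted p 0.633), and at -0.10 without M1 replicate 2. With total-count scaling 5 of the 12 were higher and 6 lower, Csk being called higher at 0.41.

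**Figure D4:**
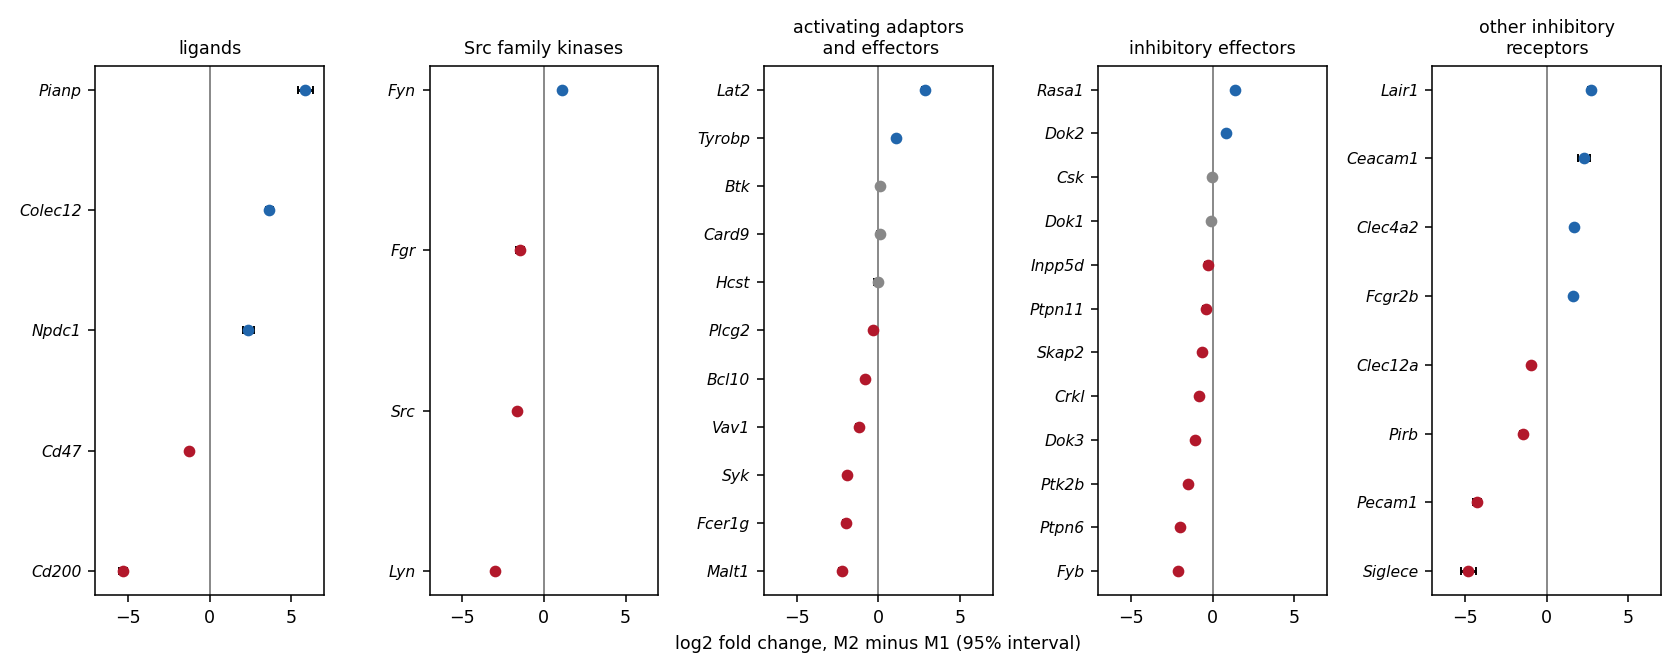
Fold change, M2 minus M1, in log2 units with 95% intervals, of the tested ligands, 4 Src family kinases, activating adaptors and effectors, inhibitory effectors and other inhibitory receptors (n = 2 libraries per group). Blue points were called higher in M2, red points lower and grey points were not called. Cd200 at -5.32 and Pianp at 5.85 lie at the ends of the ligand panel, and 3 of the 4 Src family kinases lie left of 0.

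Of the other inhibitory receptors of myeloid cells, 4 of 8 tested were higher and 4 were lower in M2, near the even split of calls over all tested genes (39.7% higher, 37.5% lower). Lair1, a collagen receptor, had 130 and 134 CPM in M2 against 21.5 and 19.2 CPM in M1, a rise of 2.70 log2 units (adjusted p 2.42e-14), and Ceacam1 rose by 2.26. Siglece, a sialic acid receptor, had 0.447 and 0.282 CPM in M2 against 9.30 and 10.5 CPM in M1, with a log2 fold change of -4.80 (adjusted p 1.09e-11), and Pecam1 fell by 4.27. Directions in this list were the same under the other scalings.

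Several of these receptors are also known from basophils, mast cells, neutrophils and dendritic cells. None of the 7 basophil and mast cell markers reached 1 CPM in any library. Their sum was 0.958 and 1.13 CPM in M2 and 0.549 and 0.488 CPM in M1, and Ms4a2, Mcpt4 and Prss34 had no count. The 8 neutrophil markers summed to 11.8 and 15.5 CPM in M2 and 9.47 and 10.6 CPM in M1, with members going both ways: S100a8 was 3.06-fold lower in M2, and S100a9, Ltf, Ngp and Mpo were 7.15-, 8.99-, 9.70- and 9.40-fold higher. The 5 dendritic cell markers summed to 2.87 and 2.34 CPM in M2 and 33.8 and 34.5 CPM in M1. In M1 most of the sum was Xcr1, at 30.9 and 31.9 CPM, and in M2 most was Zbtb46, which was called higher there, at 2.20 and 1.41 CPM in M2 against 0.858 and 0.936 CPM in M1. Flt3 stayed under 1 CPM in every library. The part of such cells in the fall of Cd300e and the PILR genes was not tested. The 3 eosinophil markers summed to 4.05 and 4.71 CPM in M2 and 0.515 and 0.163 CPM in M1. Most of it was Ccr3, at 3.86 and 3.67 CPM in M2 against 0.378 and 0.122 CPM in M1, and Prg2 reached 0.977 CPM in M2 replicate 2. The 4 T and NK cell markers and the 3 B cell markers summed to at most 0.391 and 1.17 CPM in M2 and 0.275 and 1.79 CPM in M1.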

How the data were processed

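Poly(A) RNA of 4 mouse macrophage libraries, M2 (n = 2) and M1 (n = 2), was sequenced after preparation with a kit that does not mark strand, per the labels' protocols. What the authors deposited and what was used is a matrix of raw integer read counts, genes by libraries, without normalization. The submitters' processing notes name GRCm38 as the build and, as tools, STAR 2.5.2b, Trimmomatic 0.36, Subread 1.5.2 with featureCounts, DESeq and DESeq2, with no role or setting for any of them. The authors' comparison table was not used.

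The 10 genes and the lists of partners were chosen with earlier results of these data known, so no count over them is independent evidence. Gene IDs were matched to GENCODE release M21, with a symbol for 49056 of 49315. Genes were kept by filterByExpr (minimum count 10, minimum total 15), scaled by TMM and tested with edgeR 4.0.16 in R 4.3.3 (robust quasi-likelihood, two-sided). Standard errors are the log2 fold change over the square root of F. Where a group had few counts, as for Cd300e, Pilra, Pilrb1 and Pilrb2 in M2, they are too small. The fitted intervals of these genes are narrower than the exact intervals for counting error. Means are given with SD. Levels between genes are CPM per kilobase of the union of annotated exons. Of the partner lists, genes named are the whole list where 6 or fewer were tested, otherwise the 2 called genes with the largest change each way among those of at least 1 CPM, and the most abundant gene not called. Plcg2, Inpp5d, Sirpb1a and Sirpb1b were named after their values were seen. Of the Src family kinases listed, 1 is not reported here. Cd99 had no match by symbol and Lilrb4a no row under its ID. Replicate libraries of a group correlated at 0.999 (M2) and 0.998 (M1), on log2(CPM + 1) across genes. Chi-square per degree of freedom between the 2 libraries of a group was 2.39 in M2 and 14.2 in M1. The M1 libraries thus differed more beyond counting error, while the fit takes a single spread per gene for both groups. Depths of 26806370 to 39506242 counts put 1 count under 0.1 CPM, and intervals of pooled ratios cover counting error only. The script was tested on simulated data. Alternatives were 4 scalings, 2 filters, DESeq2 1.42.0, limma-voom (limma 3.58.1), a non-robust fit, leaving out each library, and another gene length.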

Additional observations from a re-analysis of the deposited data

How the results depend on the processing

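All 10 receptors kept their direction and their call under each of the 13 other settings of scaling, filter, test and library that could be run for them. The 1 gap was Cd300lf, which a filter of at least 5 CPM in 2 libraries removes, leaving 9. Over these settings the log2 fold change of Cd300e ran from -8.91 to -8.29, that of Cd300lb from 5.03 to 5.66, and that of Sirpa, the smallest, from 0.80 to 1.31. Where 1 library was left out, the other library of its group stood alone, so a call kept there is no check on that group's spread. Of 452 values of 35 other named genes 435 kept direction and call. Total-count scaling moved the median gene by 0.45 and upper-quartile scaling by 0.19 log2 units towards M2. Calls higher in M2 were 71.9% of all with total-count, 60.8% with upper-quartile and 51.4% with TMM scaling. Genes lower in M2 numbered 3342 with total-count scaling, against 5495, and partner genes higher in M2 numbered 25, against 16. The calls of Plcg2 (TMM: -0.29) and Inpp5d (TMM: -0.28), lower with TMM, reversed under total-count scaling. There they were called higher, at 0.158 (adjusted p 0.0188) and 0.168 (adjusted p 0.032), and under upper-quartile scaling neither was called. Csk was called higher at 0.414 with total-count and at 0.15 (adjusted p 0.0368) with upper-quartile scaling. It stood at 0.023 with no filter, and from -0.102 to 0.029 leaving out 1 M1 library. Sirpb1a, which had 30 and 9 counts in M1, ranged from -1.15 without M1 replicate 2 to 0.34 without M1 replicate 1. Leaving out 1 library gave 10167 to 11525 called genes, the lone library of a group being taken to vary like the other pair. No paired analysis was possible because the replicate numbers follow the order of deposit and pair no libraries.

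The PILR genes and Cd300e had 2 to 24 counts per M2 library, so depth limits the precision of their ratios.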
